A study of Mus musculus with 30 samples.

Results

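The comparison set 5 D1 Control libraries against 5 D2 Control libraries, 10 of the 30 ribosome-tag RNA libraries made from the nucleus accumbens of female mice. These 10 are the series' count columns for unstressed mice and were chosen by their labels, not by any measured value. D1 libraries came from D1-Cre-RT mice and are labelled D1-MSN. D2 libraries came from A2A-Cre-RT mice, are labelled A2A-MSN in the sample records and carry the name D2 in the count columns. RT stands for RiboTag, an HA-tagged ribosomal protein that Cre switches on, so that ribosomes of the Cre-expressing cells can be pulled down with an anti-HA antibody. Cre is driven by the D1 dopamine receptor gene in the first line and by the A2A adenosine receptor gene in the other. Any cell that uses either driver, spiny neuron or not, can contribute tagged ribosomes. The labels give no ages. Control mice did not undergo chronic witness defeat stress (CWDS). The other 20 libraries, 5 for each class in each outcome group, came from stressed females grouped by social interaction as Resilient or Susceptible, and they entered the estimate of the spread and the check described at the end. Each library pooled punches from 4 mice with similar social interaction ratios, taken 24 h after that test, so a library is a pool and not a single animal.

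The nucleus accumbens is made up mostly of GABAergic medium spiny neurons. D1 spiny neurons carry the D1 dopamine receptor, which couples to Golf and raises cyclic AMP, and make dynorphin and substance P. D2 spiny neurons carry the D2 dopamine receptor, which couples to Gi, together with the Gs/olf-coupled A2A adenosine receptor, and make enkephalin. Interneurons that release acetylcholine, or that contain somatostatin, neuropeptide Y or parvalbumin, are sparse among them, and glia and vessels surround them.

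Gene counts came to between 40504633 and 59141960 per D1 Control library and between 52473617 and 65882152 per D2 Control library. Levels below are in CPM, counts divided by the TMM-scaled library size, and a count of 3, the floor used for an absent gene, was worth 0.0455 to 0.0741 CPM. No replicate pair agreed within sampling noise: chi-square per degree of freedom was 12.8 to 138 over the 20 replicate pairs. D1 Control replicate 1 and D2 Control replicate 5 stood apart from their groups. Replicate 1 of D1 had the highest astrocyte, mural, oligodendrocyte and microglial levels of its group and the most Drd2 and Penk. Replicate 5 of D2 had the most Drd1, Pdyn, Sst and Npy and the least Adora2a of its group. Counts of calls and the main genes are also given without both libraries, an alternative added after the data had been seen. Since both held the most of the other class's markers, wider differences without them follow in part from that choice. Such values are no independent support. Of the 66 genes reported by the naming rule, 17 share exon sequence with a gene on the opposite strand, among them Penk, Jun, Adcy2, Satb1, Kcnj9 and Kcnk2, and their reads cannot be told apart where counting ignores strand. In these bulk libraries, fewer cells of a type and less RNA per cell cannot be told apart.

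The upstream sequences of 5 of the genes described below are shown. Drd1 and Drd2 are the receptors that define the classes, and Isl1 is a D1 transcription factor. Gpr6 and Clstn2 are among the 4 named genes whose window held a full cyclic AMP response element (CRE). The sequences are the RefSeq bases (GRCm38.p6) of the window of 250 bases before the start site. They are cut where the first GENCODE vM21 exon begins and read 5′ to 3′ on the gene's strand. Capitals mark matches on either strand to the CRE (TGACGTCA), a CRE variant (TGCGTCA) or the GC box (GGGCGG). Each motif was counted by itself, so matches of different motifs may overlap.
Drd1, chr13:54055706-54055908, minus strand: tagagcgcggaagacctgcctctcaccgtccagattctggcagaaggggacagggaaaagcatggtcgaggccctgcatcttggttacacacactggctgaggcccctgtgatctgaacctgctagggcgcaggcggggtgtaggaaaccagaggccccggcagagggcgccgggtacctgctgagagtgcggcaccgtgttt
Drd2, chr9:49340153-49340402, plus strand: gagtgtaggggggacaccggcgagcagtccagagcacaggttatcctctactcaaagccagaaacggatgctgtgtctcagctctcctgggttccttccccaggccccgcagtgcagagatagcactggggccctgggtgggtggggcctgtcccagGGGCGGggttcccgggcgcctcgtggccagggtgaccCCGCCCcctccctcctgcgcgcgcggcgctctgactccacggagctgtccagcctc
Isl1, chr13:116309690-116309938, minus strand: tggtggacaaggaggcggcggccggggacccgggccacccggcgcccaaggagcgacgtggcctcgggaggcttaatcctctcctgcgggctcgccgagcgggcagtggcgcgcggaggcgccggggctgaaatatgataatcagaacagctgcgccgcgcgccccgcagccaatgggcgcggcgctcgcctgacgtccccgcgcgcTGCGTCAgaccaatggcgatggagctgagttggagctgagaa
Gpr6, chr10:41072291-41072540, minus strand: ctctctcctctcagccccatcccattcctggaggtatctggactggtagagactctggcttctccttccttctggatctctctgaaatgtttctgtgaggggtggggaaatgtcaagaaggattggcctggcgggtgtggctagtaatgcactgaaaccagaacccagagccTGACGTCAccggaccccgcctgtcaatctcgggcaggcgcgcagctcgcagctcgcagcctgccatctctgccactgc
Clstn2, chr9:98033182-98033417, minus strand: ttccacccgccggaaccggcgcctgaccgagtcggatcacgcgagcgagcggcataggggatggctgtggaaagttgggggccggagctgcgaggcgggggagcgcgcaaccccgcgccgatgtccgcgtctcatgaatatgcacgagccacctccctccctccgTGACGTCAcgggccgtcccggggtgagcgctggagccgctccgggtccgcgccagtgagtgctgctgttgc
The Drd1 window held none of the 3 motifs and the Drd2 window held 2 GC boxes. Of all 32851 windows of 250 bases, 1.55% held the CRE, 1.75% the variant and 32.7% the GC box. Among the 39 named genes with a window, 4 held the CRE: Sst and Clstn2, higher in D1 libraries, and Gpr6 and Cartpt, higher in D2 libraries. The variant was found at Tac1 and Isl1, both higher in D1 libraries, and 24 of the 39 held a GC box. A match is a description of letters in a window and not evidence of a site.

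All 6 class markers differed in the direction of their labels, with no overlap between the groups. Drd1 (chromosome 13, 54051183 to 54055705 on GRCm38) measured 380.2, 476, 482, 569 and 562 CPM in D1 Control replicates 1 to 5 and 54.7, 68.7, 147, 71.6 and 247 CPM in D2 Control replicates 1 to 5. The highest D2 library, replicate 5, stayed below the lowest D1 library, replicate 1. The log2 difference was 2.07 (SE 0.45, a 4.19-fold difference, edgeR adjusted p = 0.0035) and 2.62 without the 2 libraries that stood apart. Pdyn (chromosome 2, 129686565 to 129699844), the precursor of dynorphin, measured 479.5, 594, 574, 608 and 614 CPM in D1 and 43.7, 41.1, 155, 56.2 and 275 CPM in D2 libraries. Here D2 replicates 3 and 5 lay well above the other 3 D2 libraries. The log2 difference was 2.33 (SE 0.57, edgeR adjusted p = 0.011; 3.03 without both). Tac1 (chromosome 6, 7554879 to 7565834), which encodes substance P, measured 701, 772, 837, 915 and 856 CPM in D1 and 193, 207, 322, 286 and 558 CPM in D2 libraries, on the log2 scale 1.38 (SE 0.33, edgeR adjusted p = 0.0086; 1.76 without both). D2 libraries thus held a measurable level of each D1 marker.

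The D2 markers showed larger log2 differences. Drd2 (chromosome 9, 49340627 to 49408177) measured 125, 74.7, 59.8, 64.7 and 49.8 CPM in D1 and 572, 525, 439, 448 and 294 CPM in D2 libraries, on the log2 scale -2.60 (SE 0.27, edgeR adjusted p = 2.2e-07; -2.98 without both). Adora2a (chromosome 10, 75316877 to 75334784), the A2A receptor and the Cre driver of the D2 line, measured 238, 164, 111, 128 and 113 CPM in D1 and 1371, 1349, 1142, 1398 and 751 CPM in D2 libraries (-2.99, SE 0.28, edgeR adjusted p = 5.1e-08; -3.34 without both). Penk (chromosome 4, 4133531 to 4138819), the enkephalin precursor, measured 1811, 1313, 1131, 1133 and 1125 CPM in D1 and 9149, 8581, 7989, 10480 and 6085 CPM in D2 libraries (-2.70, SE 0.25, edgeR adjusted p = 3.9e-08; -2.93 without both). For all 3, D1 replicate 1 was the highest D1 library and D2 replicate 5 the lowest D2 library. A marker index, the mean log2 CPM of the 3 D2 markers minus that of the 3 D1 markers, was -1.37 ± 0.58 (SD, n = 5) in D1 and 3.6 ± 1.22 (SD, n = 5) in D2 libraries, from -1.85 to -0.41 and from 1.71 to 4.64. It serves as a check of the labels and was given no test.

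Of the wider identity lists, 8 of 10 D1 genes and 6 of 6 D2 genes passed the threshold, an edgeR adjusted p under 0.05 over all 19368 genes tested. For comparison, 3.51% of the tested genes passed on the D1 side and 4.8% on the D2 side. Both lists contain their class markers described above: Drd1, Pdyn and Tac1, and Drd2, Adora2a and Penk. List members were also picked when earlier results from these data were known, so these counts are no independent support. Slc35d3, a transporter-family gene used as a marker of D1 spiny neurons, averaged 114 ± 18.9 (SD, n = 5) against 26 ± 19.3 CPM, a log2 difference of 2.13, and the LIM-homeobox factor Isl1 34.4 ± 5.92 against 8 ± 7.17 CPM (2.10). Isl1 depended on single libraries: D2 replicate 5 held 20.3 CPM where the other D2 libraries held 3.12 to 8.05 CPM, and the gene passed in 2 of the 10 fits that left out 1 Control library. The early B-cell factor Ebf1 did the same (20.4 ± 3.07 against 7.91 ± 4.87 CPM, 1.36), also passing in 2 of 10 such fits. Without both libraries that stood apart, the log2 differences were 2.70 for Slc35d3, 2.92 for Isl1 and 1.88 for Ebf1. Asic4, an acid-sensing channel family member, differed by 1.33 (1.50 without both). Chrm4, the M4 muscarinic receptor, averaged 47.1 ± 7.96 against 12.8 ± 6.27 CPM with no overlap but did not pass (log2 difference 1.88, SE 0.64, edgeR adjusted p = 0.072). Eya1 averaged 5.32 ± 1.11 and 5.19 ± 0.671 CPM and its groups overlapped. On the D2 side, Gpr6, a constitutively active orphan receptor that raises cyclic AMP, averaged 39.5 ± 11.2 against 192 ± 56.7 CPM (-2.28, -2.58 without both). The zinc-finger factor Sp9, needed for D2 neurons to form, averaged 17.3 ± 3.8 against 57.2 ± 10.3 CPM (-1.73, -1.91 without both), and the homeobox factor Six3 115 ± 7.42 against 204 ± 17.5 CPM (-0.83, -0.81 without both).

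**Figure D1:**
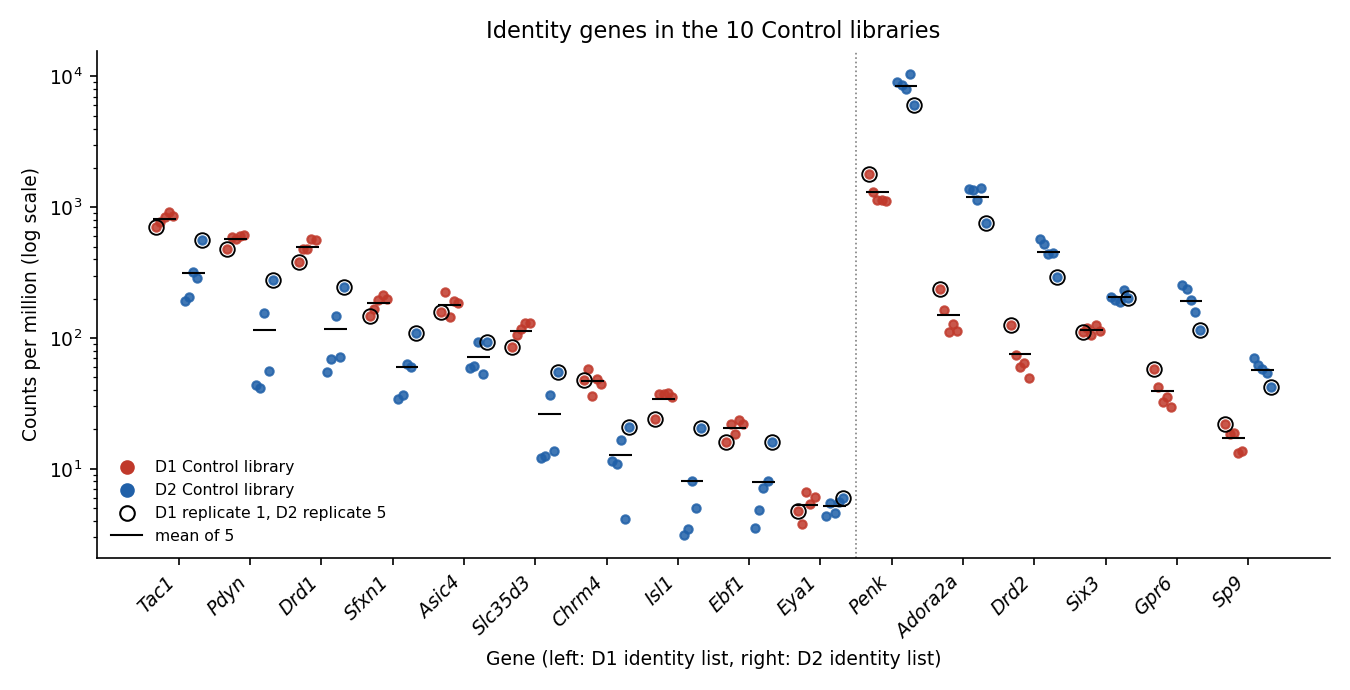
CPM on a log scale for the 10 genes of the D1 identity list and the 6 genes of the D2 identity list, 1 point per Control library, with a bar at the mean of 5 and a ring around D1 replicate 1 and D2 replicate 5. Groups do not overlap for any of these genes except Eya1, and the ringed libraries lie nearest to the other class for Drd1, Pdyn, Adora2a and Drd2.

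Genes of other cell types moved with the comparison in both directions, and these values stand beside every result below; their part in those results was not tested. Marker lists of vessels and glia ran higher in D2 libraries. Of 407 such genes that passed the filter on low counts, 161 were called higher in D2 and 4 higher in D1. Summed mural (vessel wall) markers were 54.4 to 90.3 CPM in D1 and 258 to 434 CPM in D2 libraries, with 28 of 40 genes called, all higher in D2 (log2 difference of the sums -2.38). Endothelial genes were called higher in D2 for 75 of 109, with sums of 2570 to 2948 against 3138 to 3627 CPM (-0.34). The median log2 difference over the 109 was -2.39. The 2 most abundant members differed less: Spock2 averaged 1262 ± 113 and 1116 ± 69.8 CPM and was not called, and Bsg averaged 383 ± 22.1 and 502 ± 23.8 CPM (-0.39, called higher in D2). Astrocyte markers were higher in D2 for 32 of 64, with sums of 1376 to 2644 against 2542 to 3484 CPM (-0.87), which overlapped through D1 replicate 1 at 2644 CPM. Among the 2 most abundant members of each list the widest gaps were those of the mural genes Vtn (4.41 ± 3.82 against 90.9 ± 22.9 CPM) and Rgs5 (9.26 ± 2.43 against 77.4 ± 16.7 CPM) and of the haemoglobin genes Hbb-bs (3.74 ± 2.87 against 77.2 ± 18.3 CPM) and Hba-a1 (1.44 ± 0.797 against 21.3 ± 7.97 CPM). Glul, the astrocyte glutamine synthetase, averaged 276 ± 111 against 573 ± 85.7 CPM.

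The remaining glial lists differed less. Oligodendrocyte sums were 1095 to 1968 and 1371 to 2337 CPM with 1 gene called higher in D1 and 2 in D2 of 57, and microglial sums 115 to 221 and 146 to 228 CPM with 1 and 8 of 63. Two-sided exact tests that permuted the 10 library labels, whose smallest possible p is 0.00794, gave p-values adjusted over the 13 lists of 0.0147 for mural, endothelial, fibroblast, ependymal, erythroid, interneuron and spiny-neuron sums and 0.0258 for astrocyte sums. They gave 0.0309 for oligodendrocyte-precursor and pan-neuronal sums, 0.15 for microglial, 0.215 for oligodendrocyte and 0.691 for cortical sums. Fibroblast sums were 71.6 to 127 against 129 to 176 CPM (10 of 35 called, all higher in D2), precursor sums 389.7 to 473 against 452 to 593 CPM (2 and 4 of 26 called higher in D1 and D2), ependymal sums 41.8 to 56 against 60.4 to 77.3 CPM (2 of 18, higher in D2) and erythroid sums 3.47 to 13.1 against 98.1 to 162 CPM (5 of 5, higher in D2). Defining markers of these lists were detected in every Control library apart from Lum, at 0 in 3 D1 libraries and 1 D2 library, and Folr1, at 0 in 2 D1 and 4 D2 libraries. Of the other most abundant members, Col6a1, Ptgds, Slc1a2, Mbp and Kl were not called. Cacng4 (-0.67) and Clic6 (-0.51) were called higher in D2, and Tnr (0.48) and Maf (1.37), a factor that interneurons as well as microglia express, higher in D1.

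Markers of other neurons ran the other way. The interneuron list summed to 542 to 700.2 CPM in D1 and 210.4 to 492 CPM in D2 libraries (log2 difference of the sums 1.17), with 8 of 17 genes called higher in D1 and 1, the dopamine-synthesis enzyme Th, higher in D2. Among its defining markers Sst and Pvalb were called (1.57 and 1.94) and Chat, the marker of cholinergic interneurons, was not (0.63, at 1.12 to 2.49 CPM in D1 and 0.597 to 1.82 CPM in D2). Cortical excitatory markers were called higher in D1 for 6 of 14, among them the vesicular glutamate transporter Slc17a7 (634 ± 56.8 against 329 ± 53.9 CPM, 0.95). Their sums, 1687 to 1971 against 1589 to 2208 CPM, did not separate; Nrgn, which spiny neurons express too, ran the other way (721 ± 71.8 against 1188 ± 174 CPM, -0.72), and by the mean log2 CPM of the members the list was higher in D1 by 0.71 (exact permutation test, adjusted p = 0.0229). Pan-neuronal genes summed to 9276 to 11640 against 8290 to 9451 CPM (7 of 13 called higher in D1, 1 in D2). Genes shared by all spiny neurons summed to 11050 to 12620 against 12750 to 15540 CPM, with 2 of 17 called, both higher in D2.

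**Figure D2:**
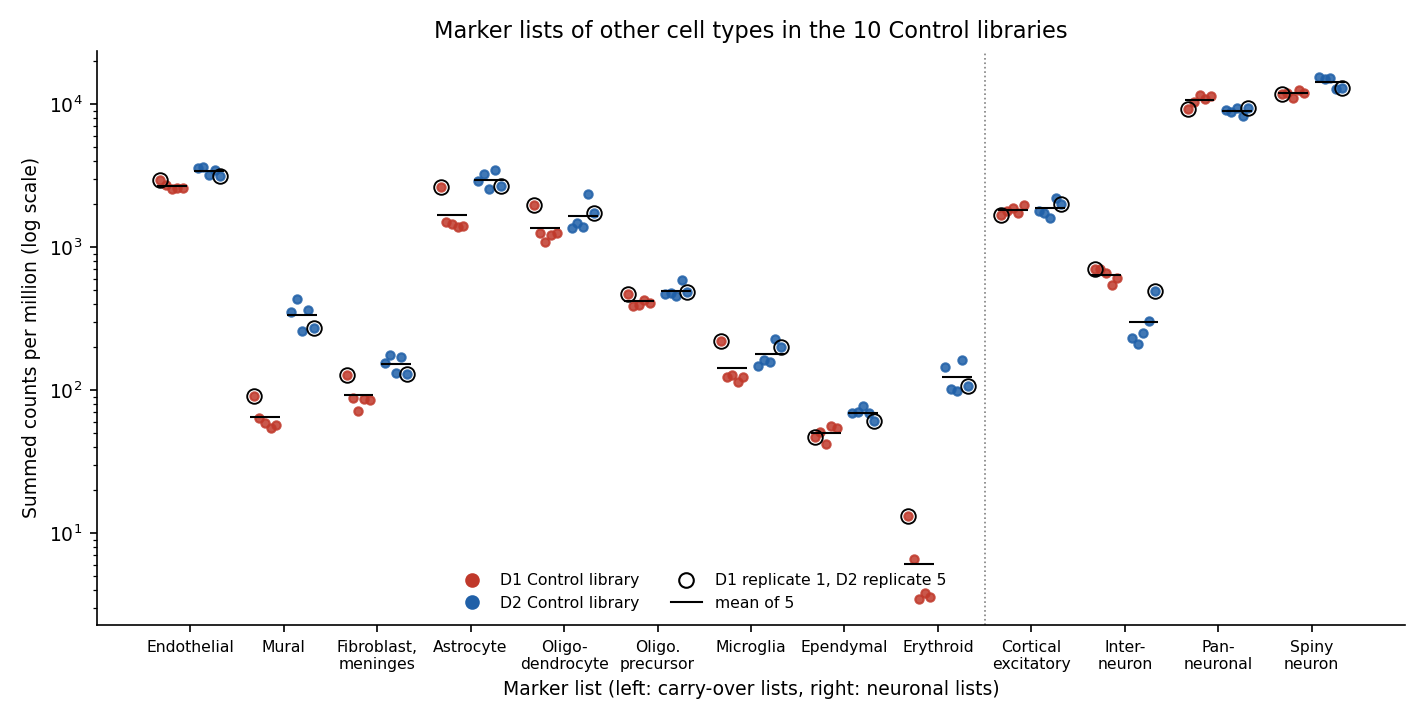
Summed CPM (log scale) of 9 marker lists of vessels, glia and blood and of 4 neuronal lists, 1 point per Control library, with a bar at the mean of 5 and a ring around D1 replicate 1 and D2 replicate 5. Mural and erythroid sums of D1 and D2 libraries lie far apart with D2 higher, interneuron sums lie apart with D1 higher, and the ringed D1 library lies within the D2 range for astrocyte markers.

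Over all genes, 1608 of 19368 (8.3%) were called, 679 (3.51%) higher in D1 and 929 (4.8%) higher in D2. These counts depend on the libraries that set the spread: with only the 10 Control libraries in the fit 2696 genes were called, and 3247 without D1 Susceptible replicate 1 and D2 Susceptible replicates 1 and 2. In those 3 libraries, lines that name no gene held 53.26%, 15.73% and 14.98% of the column total, and 19440, 15822 and 16525 genes had a count. Libraries did not overlap for 1089 genes (5.62%) with D1 higher and 1172 (6.05%) with D2 higher. The biological coefficient of variation of the fit was 41.4%. The 7 functional classes, described without their 123 members on a vessel, glia or blood list, held 1729 genes that passed the filter, of 2239 in the table. Of these, 146 (8.44%) were called higher in D1 and 68 (3.93%) higher in D2, 9 of the 146 being on the interneuron or cortical list. The 123 members left out include 29 receptors and 65 transcription factors. Not counted in the classes are, for example, the receptor P2ry1 (31.2 ± 2.62 against 131 ± 30.3 CPM, -2.07), called higher in D2, and Maf (1.37), called higher in D1. The share higher in D1 was 29.5% for neuropeptides and secreted ligands, 14.0% for ligand-gated channels, 13.4% for guidance and adhesion genes and 10.5% for G-protein-coupled receptors, all above the background of 3.51%. It was 9.68% for G-protein signalling, 8.51% for other ion channels and 3.68% for transcription factors, the last near the background. On the D2 side, receptors (7.5%) and signalling genes (6.45%) lay above the background of 4.8% and neuropeptides (4.92%) near it. Ion channels (3.72%), transcription factors (3.29%), guidance genes (2.17%) and ligand-gated channels (0 of 57) lay below it. The classes leave out vessel, glia and blood genes, but the background keeps all 407 of them, 161 called higher in D2 and 4 higher in D1. The D2 background is therefore raised by genes the classes do not hold, and small gaps to it cannot be read. The D1 background is lowered by the same genes. Pan-neuronal genes were called higher in D1 for 7 of 13, so a D1 share above the background is not particular to a class. The D2 shares also include calls on no list that moved with the vessel lists, among them Adgra2, Tbxa2r and Gng11. No test compared the classes with each other. Leaving out the 2 libraries that stood apart gave 904 genes higher in D1 and 1002 higher in D2. Leaving out D1 replicate 3 alone gave 981 genes, 441 higher in D1 and 540 higher in D2, and leaving out D2 replicate 4 alone gave 1055 genes. The number higher in D2 was 600 without D1 replicate 4, 609 without D1 replicate 5 and 592 without D2 replicate 4. Genes named beyond the fixed rule were picked after their values were seen.

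**Figure D3:**
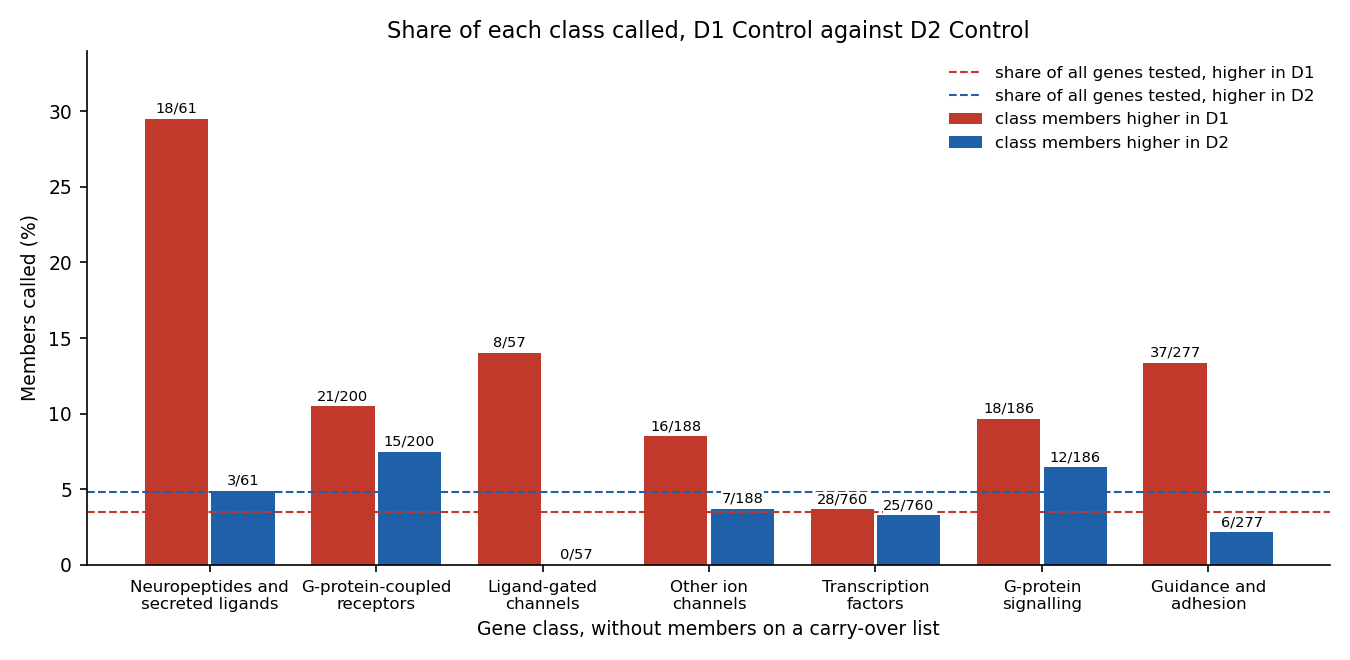
Percent of the members of each class called higher in D1 Control (red) or higher in D2 Control (blue) by edgeR, with the count above each bar. Dashed lines mark the shares over all genes tested, 3.51% and 4.8%, which keep the vessel, glia and blood genes that the classes leave out. The red bar is tallest for neuropeptides and secreted ligands, 18 of 61, and close to its dashed line for transcription factors, 28 of 760.

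Neuropeptides and secreted ligands had the highest share of calls of the 7 classes. Of 61 described, 18 were higher in D1 and 3 in D2, with a median log2 difference of 0.45 against 0 over all genes. Leaving out both libraries that stood apart gave 21 and 3, and leaving out any single one of D1 replicates 3, 4 and 5 and D2 replicates 2 and 3 gave 1 higher in D2. The peptides with the smallest adjusted p on the D1 side were 3 interneuron peptides. Npy, neuropeptide Y, measured 63.6, 51.6, 56.9, 48.4 and 52.2 CPM in D1 and 14.8, 14.8, 21.5, 16.9 and 42.6 CPM in D2 libraries. Sst, somatostatin, measured 333, 322, 269, 207 and 240.3 CPM in D1 and 55.9, 49.8, 88.4, 80.2 and 188 CPM in D2 libraries. Vip, vasoactive intestinal peptide, measured 18.9, 19.9, 28.1, 19.1 and 27.6 CPM in D1 and 5.47, 2.44, 4.87, 2.98 and 14.7 CPM in D2 libraries. In each case every D1 library lay above every D2 library, and D2 replicate 5 held the most of its group by a wide margin. The log2 differences were 1.30 (SE 0.23, edgeR adjusted p = 0.00032), 1.57 (SE 0.28, adjusted p = 0.00048) and 1.89 (SE 0.35, adjusted p = 0.00049), and without both libraries 1.63, 1.93 and 2.59. Corticotropin-releasing hormone Crh (8.9 ± 2.52 against 2.02 ± 1.26 CPM, 2.14) and the tachykinin precursor Tac2, which encodes neurokinin B (9.6 ± 1.48 against 4.42 ± 1.47 CPM, 1.12), were also higher in D1.

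Secreted synaptic proteins were also called. Of the 10 cerebellins, neurexophilins and neuronal pentraxins, proteins that bridge or cluster synaptic partners, 5 were higher in D1: Nxph1 (27.9 ± 4.74 against 7.01 ± 3.87 CPM, 1.99), Nxph3 (0.79), Nptx1 (0.79), Cbln1 (1.69) and Cbln2 (0.94). These 5 are not on the interneuron list but moved in its direction, and the part of that list was not tested. Of 7 granins, which help to form dense-core vesicles, 4 were higher in D1 by small amounts, from 0.34 for Scg3 to 0.58 for Scg2 (1236 ± 107 against 827 ± 99.6 CPM). The neurotrophin Bdnf averaged 15.2 ± 4.98 against 6.07 ± 1.48 CPM (1.32). The 2 other ligands higher in D2 were Cbln4 and Cartpt. Cbln4 measured 8.22, 9.67, 7.93, 9.13 and 6.85 CPM in D1 and 17.5, 13.2, 16, 10.2 and 11.1 CPM in D2 libraries (-0.70, SE 0.21, edgeR adjusted p = 0.029; -0.75 without both). Cartpt, the precursor of the CART peptides, measured 85.3, 77.6, 70.3, 71.9 and 63.3 CPM in D1 and 91.8, 100, 109.7, 111 and 110.2 CPM in D2 libraries (-0.50, SE 0.15, edgeR adjusted p = 0.037). Their groups did not overlap, but Cbln4 passed in 3 and Cartpt in 2 of the 10 fits without 1 library, and without both libraries Cartpt was at -0.53 with an edgeR adjusted p of 0.055. Neurotensin, Nts, averaged 43.3 ± 18.8 and 41.5 ± 3.46 CPM and cholecystokinin, Cck, 154 ± 14.1 and 104 ± 41.2 CPM; neither was called.

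G-protein-coupled receptors were called on both sides, 21 of 200 higher in D1 and 15 higher in D2 (19 and 18 without both libraries), with a median log2 difference of 0.15. Among D1-higher receptors, Cnr1, the CB1 cannabinoid receptor, measured 116, 114, 174, 129 and 132 CPM in D1 and 45.3, 44, 50.3, 47.5 and 87.8 CPM in D2 libraries. Htr1a, a Gi-coupled serotonin receptor, measured 11, 10.6, 19.1, 12.5 and 13.7 CPM in D1 and 4.08, 4.63, 4.49, 4.42 and 8.04 CPM in D2 libraries. Gabbr2, a subunit of the GABA-B receptor, measured 133, 139.7, 173, 153 and 150 CPM in D1 and 71.1, 87.3, 92, 91.3 and 120.2 CPM in D2 libraries. None of the 3 overlapped, and D2 replicate 5 was the highest D2 library for each. Log2 differences were 1.27 (SE 0.18, edgeR adjusted p = 1.2e-05), 1.38 (SE 0.22, adjusted p = 7.3e-05) and 0.70 (SE 0.11, adjusted p = 9.2e-05), and without both libraries 1.56, 1.67 and 0.86. The partner subunit Gabbr1 was not called.

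By receptor family, dopamine receptors split 1 to 1 (Drd1 and Drd2) with 3 of 5 not called. Muscarinic receptors had Chrm2 (7.58 ± 1.91 against 3.34 ± 1.46 CPM, 1.18) and Chrm3 (29.2 ± 3.72 against 19.5 ± 2.58 CPM, 0.58) higher in D1, while Chrm1 averaged 182 ± 12.6 and 189 ± 39.4 CPM. Of the opioid family, the kappa receptor Oprk1 (44.8 ± 8.12 against 30.4 ± 3.84 CPM, 0.56) and the nociceptin receptor Oprl1 (40.3 ± 2.18 against 26.9 ± 3.14 CPM, 0.58) were higher in D1, and the delta receptor Oprd1 averaged 4.76 ± 2.54 against 9.76 ± 3.67 CPM with overlap (edgeR adjusted p = 0.13). The oxytocin receptor Oxtr (13.2 ± 2.42 against 4.32 ± 1.83 CPM, 1.60) and the somatostatin receptor Sstr2 (22.9 ± 5.76 against 8.77 ± 3.05 CPM, 1.38) were higher in D1, together with the orphan receptor Gpr26 (106 ± 11.7 against 54.8 ± 10.2 CPM, 0.95). Without both libraries these 7 receptors differed by 1.33, 0.68, 0.69, 0.68, 1.89, 1.66 and 1.11. The groups overlapped for Chrm2 and Oprk1. Of the serotonin receptors 9 of 11 were not called, with Htr2c at 179 ± 21.8 and 203 ± 29.3 CPM and Htr1b at 48.6 ± 7.83 and 54.4 ± 8.13 CPM. Of the metabotropic glutamate receptors 1 of 7, Grm8, was called, and Grm5 averaged 538 ± 100.1 and 488 ± 17.4 CPM. The A1 adenosine receptor Adora1 averaged 261 ± 13.5 and 288 ± 31.1 CPM and was not called.

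On the D2 side, the melanin-concentrating hormone receptor Mchr1 averaged 92 ± 8.41 against 122 ± 13.8 CPM (-0.41, -0.47 without both) and the stress-peptide receptor Crhr1 4.39 ± 0.725 against 8.13 ± 2.5 CPM (-0.89, -1.04 without both). The groups overlapped for Mchr1 but not for Crhr1. Vessel-associated receptors were called as well. Adgra2, an adhesion receptor known from brain vessels, ranged over 1.68 to 3.58 CPM in D1 and 5.74 to 8.76 CPM in D2, and Tbxa2r, the thromboxane receptor of platelets and vessel walls, over 0 to 0.17 and 0.502 to 1.68 CPM. Both moved with the endothelial and mural lists, neither is on a list, and the part of those lists was not tested.

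Ligand-gated channels were called in 1 direction: 8 of 57 higher in D1 and 0 higher in D2 (9 and 0 without both libraries; median log2 difference 0.18). At an unadjusted p under 0.05 edgeR gave 4 higher in D2, DESeq2 called 2 and limma-voom 6. Glra2, a glycine receptor subunit, measured 33.2, 40.8, 57.2, 47.4 and 43.5 CPM in D1 and 15.9, 18.3, 17.4, 17.8 and 26.4 CPM in D2 libraries. Grik1, a kainate receptor subunit, measured 6.78, 7.13, 10.6, 5.95 and 7.67 CPM in D1 and 1.85, 1.38, 2.47, 1.97 and 3.4 CPM in D2 libraries. Grin3a, a modulatory NMDA receptor subunit, measured 27.4, 39.4, 37.3, 32.5 and 34.7 CPM in D1 and 8.8, 9.57, 11.6, 17.1 and 23.2 CPM in D2 libraries. Every D1 library exceeded every D2 library for each subunit, and D2 replicate 5 was again the highest of its group. The log2 differences were 1.21 (SE 0.21, edgeR adjusted p = 0.00025), 1.78 (SE 0.33, adjusted p = 0.00049) and 1.28 (SE 0.24, adjusted p = 0.00049), and 1.46, 2.04 and 1.62 without both libraries. The AMPA subunit Gria4 (55.8 ± 5.75 against 33.4 ± 3.96 CPM, 0.74) and 3 of 15 GABA-A subunits, among them Gabra5 (0.49), completed the D1 calls with Asic4. The main subunits of excitatory transmission in spiny neurons were not called: Gria1 averaged 594 ± 19.7 and 586 ± 48.9 CPM, Grin1 391 ± 47.3 and 346 ± 85.7 CPM and Grin2b 607 ± 21.3 and 648 ± 88.1 CPM. Of 12 nicotinic subunits edgeR called 0 (1 in each direction at an unadjusted p under 0.05; DESeq2 called 1 in each direction, limma-voom 2 higher in D1 and 1 in D2), and of 5 P2X subunits 0 (0 unadjusted; DESeq2 0, limma-voom 1 higher in D2).

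Other ion channels gave 16 of 188 higher in D1 and 7 higher in D2 (20 and 7 without both libraries; 4 higher in D2 without D1 replicate 5), with a median log2 difference of 0.10. Kcnc2 (chromosome 10, 112271121 to 112467024), the Kv3.2 potassium channel of fast-spiking cells, measured 52.1, 50, 69.5, 50.8 and 64.5 CPM in D1 and 9.1, 8.58, 15.1, 11.5 and 29.7 CPM in D2 libraries, a 3.87-fold difference (log2 1.95, SE 0.26, edgeR adjusted p = 9.0e-06; 2.42 without both). Kcnj9, a subunit of the G-protein-gated inward rectifiers, measured 87.8, 89.6, 83.9, 82.8 and 88.6 CPM in D1 and 53.6, 50.6, 53.8, 47.6 and 65.9 CPM in D2 libraries (0.67, SE 0.093, edgeR adjusted p = 1.0e-05; 0.76 without both). Kcnk9, a two-pore leak channel, measured 27.3, 33.1, 43.8, 35.1 and 37.9 CPM in D1 and 14.3, 13.7, 12.2, 16.5 and 25.6 CPM in D2 libraries (1.10, SE 0.17, edgeR adjusted p = 3.6e-05; 1.41 without both). No library of either class crossed over for these 3 channels. Another Kv3 member, Kcnc1 (114 ± 3.17 against 80.7 ± 9.82 CPM, 0.50), a further inward-rectifier subunit, Kcnj3 (91.5 ± 23.5 against 50.9 ± 12.2 CPM, 0.85), and the sodium channel Scn1a (76.1 ± 12.6 against 48.3 ± 6 CPM, 0.65) were higher in D1.

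Higher in D2 were the leak channel Kcnk2, at 123, 155, 159, 170.2 and 171 CPM in D1 and 271, 264, 242, 309.5 and 237 CPM in D2 libraries (-0.77, SE 0.12, edgeR adjusted p = 6.7e-05; -0.72 without both), and the IP3 receptor Itpr2, at 4.38, 3.51, 1.88, 3.1 and 2.62 and 5.42, 7.31, 8.67, 9.83 and 7.54 CPM (-1.32, SE 0.28, edgeR adjusted p = 0.0023; -1.47 without both). Ttyh1, a tweety-family gene that glia also express, measured 231, 194, 199.9, 184 and 199.5 and 265, 264, 242, 275 and 249 CPM (-0.36, SE 0.081, edgeR adjusted p = 0.0037; -0.41 without both). Itpr2 and Ttyh1 are on no vessel, glia or blood list. Both moved in the direction of the astrocyte and endothelial lists, and the part of those lists was not tested. The leak channels split, Kcnk9 in one direction and Kcnk2 in the other, with 7 of 9 not called. Inward rectifiers split too, with Kcnj4 (262 ± 26.6 against 342 ± 42.6 CPM, -0.39) higher in D2 beside Kcnj9 and Kcnj3 higher in D1; the groups overlapped for Kcnj3 and Kcnj4. The sodium channel beta subunit Scn4b averaged 951 ± 77.6 against 1235 ± 195 CPM (-0.38) and the calcium channel subunit Cacna2d2 67.4 ± 12.4 against 107 ± 27.8 CPM (-0.67), both with overlapping groups. The spiny-neuron channel genes Kcnd2 (279 ± 44.4 and 278 ± 14 CPM), Kcnj2 (65.5 ± 2.15 and 60.7 ± 8.49 CPM) and Scn8a (372 ± 24.3 and 378 ± 61.1 CPM) were not called.

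Of 760 transcription factors 28 were called higher in D1, a share near that of all genes, and 25 higher in D2. The D2 share lay below that of all genes, which keeps the vessel, glia and blood genes. Without both libraries the counts were 34 and 33, and without D1 replicate 3 they were 34 in all and 16 higher in D1. The median log2 difference was 0.04. Zinc-finger genes named Zfp made up 337 of the 760, with 4 called higher in D1 and 2 in D2. On the D1 side, Satb1 measured 35.2, 41.2, 56.5, 43.1 and 56.6 CPM in D1 and 20, 21.6, 17.2, 26 and 30.9 CPM in D2 libraries. Nr4a2, an activity-induced orphan nuclear receptor, measured 34.4, 53.3, 70, 77.6 and 101 CPM in D1 and 12.5, 10.6, 16.7, 13.1 and 36.5 CPM in D2 libraries. Neurod6, a cortical excitatory factor, measured 20.1, 20.1, 42.7, 33.8 and 42 CPM in D1 and 10.8, 13.1, 11.2, 8.83 and 16.4 CPM in D2 libraries. Satb1 and Neurod6 did not overlap, and for Nr4a2 D1 replicate 1 lay below D2 replicate 5. Log2 differences were 1.01 (SE 0.16, edgeR adjusted p = 9.7e-05), 1.91 (SE 0.33, adjusted p = 0.00033) and 1.39 (SE 0.27, adjusted p = 0.00076), and 1.23, 2.52 and 1.66 without both libraries. Of the 28 D1 calls, 5 are on the interneuron or cortical list, among them Lhx6 (15.9 ± 2.03 against 4.94 ± 2.77 CPM, 1.69), Nkx2-1 (1.80), Neurod6 and Tbr1 (0.98). Sox6 (1.19) and Npas1 (2.33), known from interneuron development but not on that list, ran with them.

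On the D2 side, Jun gave the smallest adjusted p of the named-symbol genes on no vessel, glia or blood list. The AP-1 gene Jun (chromosome 4, 95049034 to 95052222), whose exons overlap those of Junos on the opposite strand, measured 60.7, 58.5, 58.8, 55.6 and 50.2 CPM in D1 and 402, 424, 356, 391 and 201 CPM in D2 libraries, a 6.25-fold difference (-2.64, SE 0.21, edgeR adjusted p = 2.2e-09; -2.81 without both). Every D2 library lay above every D1 library, and D2 replicate 5 was the lowest of its group. Of the other members of the family, Junb averaged 86.8 ± 17.2 and 88.2 ± 18.1 CPM and Fosb 16.8 ± 2.58 and 13.2 ± 4.29 CPM, neither called, while Fos was higher in D1 (19.7 ± 7.47 against 10.3 ± 1.81 CPM, 0.93, edgeR adjusted p = 0.025) with overlapping groups. The immediate-early gene Egr1 averaged 344 ± 61 and 339.8 ± 42.1 CPM. Id1, an inhibitor of helix-loop-helix factors, measured 2.11, 0.988, 1.26, 0.702 and 1.31 CPM in D1 and 10.9, 11.6, 6.09, 11.8 and 6.92 CPM in D2 libraries (-2.89, SE 0.30, edgeR adjusted p = 1.1e-07; -3.23 without both). Pou3f1, a POU-domain factor, measured 87.2, 84.4, 58.5, 82.7 and 79.2 and 146, 142, 141, 164 and 132 CPM (-0.89, SE 0.10, edgeR adjusted p = 9.4e-07; -0.95 without both). Foxp1 (528 ± 56.8 against 889.9 ± 192 CPM, -0.75) and Dlx6 (71 ± 9.25 against 106 ± 7.95 CPM, -0.57) were also called higher in D2, but without both libraries Foxp1 no longer passed (-0.70, edgeR adjusted p = 0.091), and it passed in 2 of 10 fits that left out 1 library. Gata2, a factor of endothelial and blood cells, ranged over 0.146 to 0.866 CPM in D1 and 2.18 to 3.75 CPM in D2 libraries. Neither Id1 nor Gata2 is on a vessel, glia or blood list. Both moved with the endothelial and mural lists, and the part of those lists was not tested. The striatal factors Bcl11b (609.7 ± 51.8 and 784 ± 114 CPM) and Meis2 (466 ± 26.4 and 558 ± 32.4 CPM) did not pass although their groups did not overlap, and Foxp2 averaged 263 ± 56 and 198 ± 40.9 CPM with overlap. For Lhx9, Dlx3 and Cnga3, called higher in D1, the D2 libraries held 0 counts and the 5 D1 libraries together 57, 45 and 50, so their fitted differences depend on the prior count and are not given.

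G-protein signalling genes were called on both sides, 18 of 186 higher in D1 and 12 higher in D2 (24 and 15 without both libraries; median 0.02). Adcy2 (chromosome 13, 68620043 to 68999541), an adenylyl cyclase that G-protein beta and gamma subunits stimulate, measured 62.9, 63.2, 71, 63.5 and 70.7 CPM in D1 and 25.5, 22.4, 23.4, 25 and 36.8 CPM in D2 libraries. It had the smallest adjusted p of the named-symbol genes higher in D1 that are on no vessel, glia or blood list (log2 1.31, SE 0.15, edgeR adjusted p = 3.2e-07; 1.49 without both). The groups did not overlap, and D2 replicate 5 was the highest D2 library. Gnai1, an inhibitory G alpha subunit, measured 217, 247, 318, 284 and 283 CPM in D1 and 145, 146, 166, 139 and 195 CPM in D2 libraries (0.77, SE 0.11, edgeR adjusted p = 2.7e-05; 0.94 without both). Gnb5, the G beta subunit that pairs with RGS proteins, measured 323, 343, 306, 350.1 and 342 and 538, 526, 527, 466 and 389.5 CPM (-0.56, SE 0.076, edgeR adjusted p = 8.6e-06; -0.61 without both). Arpp19, a cyclic AMP-regulated phosphoprotein that inhibits protein phosphatase 2A, measured 500.3, 499, 535, 576 and 646 and 954, 917, 893, 833 and 807 CPM (-0.68, SE 0.11, edgeR adjusted p = 6.1e-05; -0.66 without both). For all 4, no D1 library fell within the D2 range.

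Signalling families held calls in both directions. Among G beta and gamma subunits Gnb4 (100.2 ± 11.6 against 42.4 ± 11.9 CPM, 1.24) and Gng2 (112 ± 21.7 against 49.1 ± 14.7 CPM, 1.19) were higher in D1. Gnb5, Gnb2, Gng5 and Gng11 were higher in D2, Gng11 at 0.433 to 2.06 against 4.14 to 10.7 CPM. Gng11 (-2.57) and the adenylyl cyclase Adcy4 (-3.52), on no vessel, glia or blood list, moved in the direction of the endothelial and mural lists. The part of those lists was not tested. Of the phosphodiesterases Pde1a was higher in D1 (212 ± 26.3 against 119.5 ± 16.7 CPM, 0.83) and Pde4b higher in D2 (157 ± 13.5 against 206 ± 17.9 CPM, -0.39). Prkca, protein kinase C alpha, was higher in D1 (171 ± 13 against 113 ± 16.3 CPM, 0.60) and Gucy1a1, a subunit of the nitric oxide receptor guanylyl cyclase, higher in D2 (171 ± 18.7 against 345 ± 92.7 CPM, -1.01). Of 19 RGS genes edgeR called 0 (1 higher in D1 and 3 in D2 at an unadjusted p under 0.05; DESeq2 called 1 higher in D2, limma-voom 5 and 4). Core genes of striatal cyclic AMP signalling were not called: Gnal, the Golf alpha subunit, averaged 799.8 ± 47.4 and 792 ± 120.4 CPM, the adenylyl cyclase Adcy5 946 ± 102 and 1098 ± 111 CPM, Pde10a 613 ± 61 and 651 ± 109 CPM, and Ppp1r1b, which encodes DARPP-32, 2086 ± 229 and 2573 ± 403 CPM.

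Guidance and adhesion genes were called mostly on the D1 side, with 37 of 277 higher in D1 and 6 higher in D2 (49 and 7 without both libraries, 2 higher in D2 without D1 replicate 3 and 3 without D1 replicate 5, D2 replicate 1 or D2 replicate 4; median 0.19). Kit, a receptor tyrosine kinase of interneurons and on the interneuron list, measured 19.1, 21.9, 26.1, 22 and 26.3 CPM in D1 and 3.66, 4.43, 7.34, 5.17 and 9.92 CPM in D2 libraries (1.92, SE 0.25, edgeR adjusted p = 3.4e-06; 2.24 without both). Clstn2, a calsyntenin of the synaptic membrane, measured 28, 32.6, 40.8, 35.3 and 36 CPM in D1 and 15, 13.3, 15.4, 14.9 and 23.8 CPM in D2 libraries (1.07, SE 0.15, edgeR adjusted p = 9.5e-06; 1.32 without both). Neither overlapped. Reln, an extracellular guidance protein made by some interneurons, averaged 98.1 ± 17.8 against 54.5 ± 12.4 CPM (0.85). Lingo2 (19.1 ± 2.56 against 4.21 ± 2.91 CPM, 2.17) and Elfn1 (13.7 ± 1.53 against 5.25 ± 2.01 CPM, 1.38) were among 6 of 29 leucine-rich-repeat synaptic proteins higher in D1. The neuregulin Nrg3 (20 ± 3.32 against 8.56 ± 1.33 CPM, 1.22), its receptor Erbb4 (73.5 ± 9.59 against 33.5 ± 11.6 CPM, 1.13) and the GDNF-family receptor Gfra1 (53.8 ± 4.5 against 18.7 ± 7.23 CPM, 1.53) were higher in D1. So were 4 of 18 cadherins, 3 of 10 plexins and neuropilins and 3 of 13 contactin-family genes, while 60 of 63 protocadherins were not called.

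The 6 D2-higher guidance genes were Ptprm, Ephb4, Epha2, Pcdh12, Lrfn4 and Gfra4. Ptprm, a receptor tyrosine phosphatase that binds itself across cell contacts, measured 29.4, 27.6, 27.1, 29.2 and 23.7 CPM in D1 and 73.7, 67.2, 67.2, 49 and 53.7 CPM in D2 libraries (-1.18, SE 0.17, edgeR adjusted p = 2.9e-05; -1.24 without both). Ephb4, an Eph receptor best known from veins, measured 0.378, 0.221, 0.0188, 0.148 and 0.291 CPM in D1 and 2.65, 3.44, 2.45, 3.67 and 1.98 CPM in D2 libraries (-3.73, SE 0.66, edgeR adjusted p = 0.00028; -4.15 without both). Epha2 held 3 counts over the 5 D1 libraries against 139 over the 5 D2 libraries, and Pcdh12, an endothelial protocadherin, 3 against 131. These low genes, and Ptprm at a higher level, moved in the direction of the endothelial list, and the part of that list was not tested. Its 3 defining markers Cldn5, Pecam1 and Flt1 differed by -3.41, -3.13 and -3.64 on the log2 scale. Of 19 Eph receptors and ephrins edgeR called 0 higher in D1 (2 at an unadjusted p under 0.05; DESeq2 0, limma-voom 4), and Epha4 averaged 217 ± 27.5 and 219 ± 14.4 CPM.

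**Figure D4:**
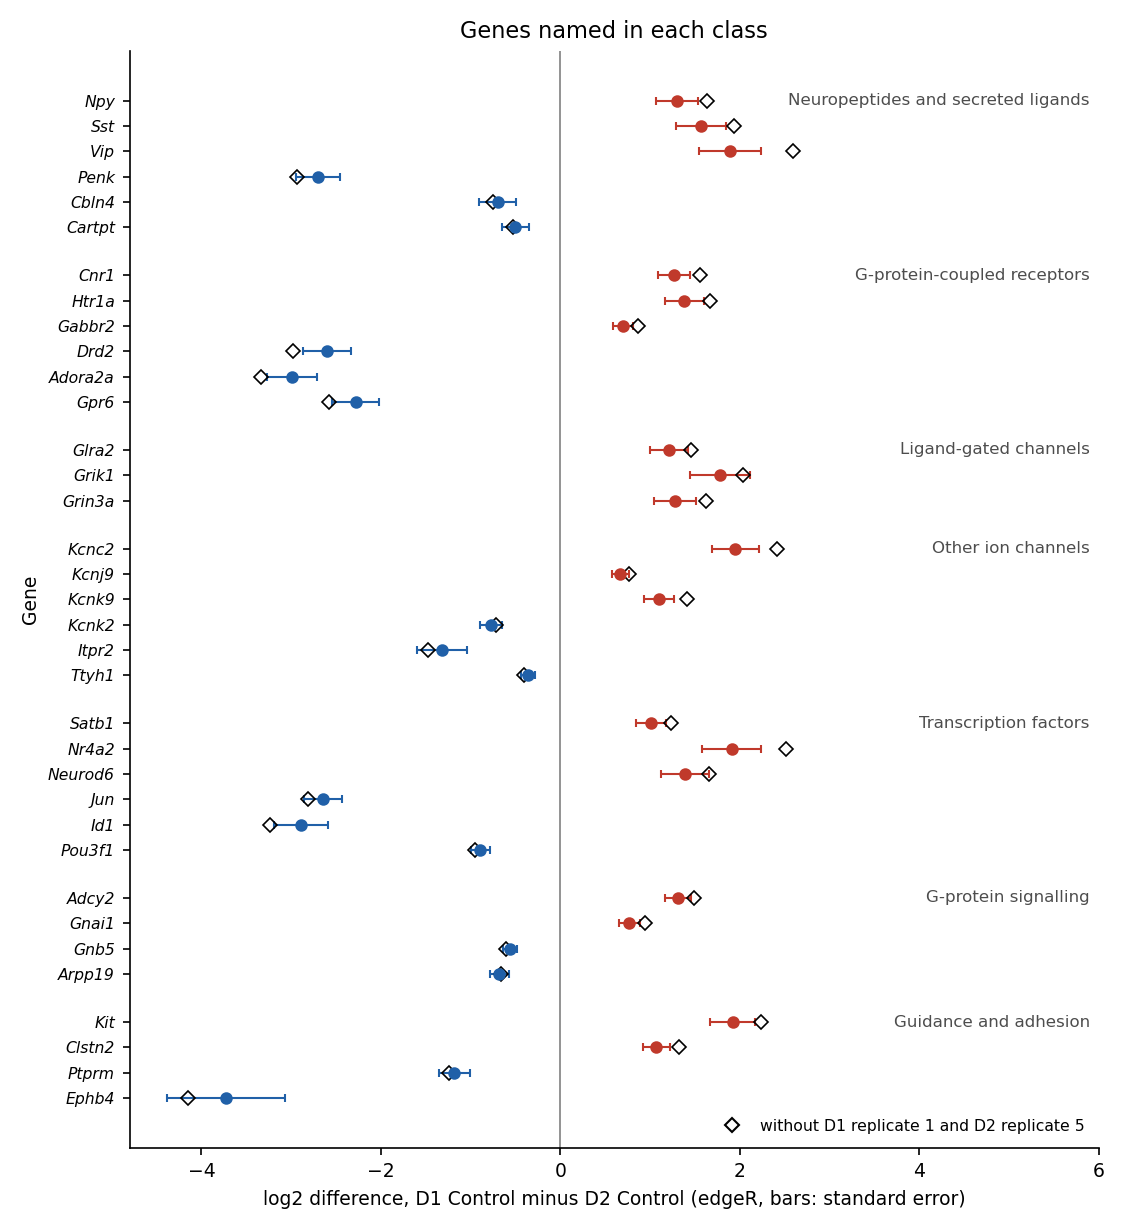
Log2 difference, D1 Control minus D2 Control, with its standard error from edgeR for the genes with the smallest adjusted p in each class and direction, red where D1 was higher and blue where D2 was higher. Open diamonds give the value without D1 replicate 1 and D2 replicate 5, which keeps the sign of every gene and is further from 0 for most of them. Those libraries held the most of the other class's markers, so the wider values follow in part from their choice.

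Outside the classes, the genes with the smallest adjusted p on no vessel, glia or blood list were Disp2 and Slc24a3 beside Adcy2 on the D1 side and Apcdd1 beside Jun and Penk on the D2 side. Slc24a3, a sodium, calcium and potassium exchanger, measured 82.5, 93, 90.1, 84.5 and 80.1 CPM in D1 and 43.1, 45.6, 44.8, 48.5 and 56.9 CPM in D2 libraries (0.85, SE 0.11, edgeR adjusted p = 3.1e-06; 0.95 without both). Disp2, a dispatched-family membrane protein, measured 180.1, 196, 211, 187 and 189 and 99.1, 93.7, 97.4, 94 and 135 CPM (0.89, SE 0.11, edgeR adjusted p = 3.1e-06; 1.04 without both). Apcdd1, a Wnt inhibitor that brain endothelium also makes, measured 6.72, 4.33, 5.41, 3.9 and 4.44 and 24, 32.8, 19.3, 30.8 and 19.4 CPM (-2.35, SE 0.23, edgeR adjusted p = 3.9e-08; -2.55 without both). None of the 3 overlapped between classes.

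Genes beside the drivers were looked at because each Cre line carries a driver region. Within 200 kb of Adora2a, 1 of 5 genes tested was called: Upb1, 66.3 kb away, averaged 5.72 ± 1.95 against 26 ± 7.86 CPM (-2.18). Near Drd1, 2 of 3 were called, Sfxn1 at 16.2 kb, itself on the D1 identity list (185 ± 26.1 against 60.5 ± 30.1 CPM, 1.61, 2.01 without both), and the histamine receptor Hrh2 at 136 kb (5.07 ± 0.95 against 2.89 ± 0.99 CPM, 0.81). Over all genes tested 8.3% were called in either direction, and so few neighbours allow no reading of their share. A part of the transgenes in these differences was not tested.

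The libraries of stressed mice allow D1 and D2 to be compared in other pools of mice. They are not in the Control difference itself, but they share the estimate of the spread with it, so the calls in the 3 groups are not independent of each other. Over all genes, D1 Resilient against D2 Resilient gave 2.75% higher in D1 and 3.9% higher in D2, and D1 Susceptible against D2 Susceptible 10.5% and 13.4%. Of the 214 class genes called in Control, 202 had the same sign in Resilient and 136 (63.6%) were called there in the same direction. In Susceptible the numbers were 213 and 177 (82.7%). By direction, 96 of the 146 D1 calls and 40 of the 68 D2 calls were called again in Resilient, and 127 and 50 in Susceptible. Jun differed by -2.57 and -2.58, Kcnc2 by 2.02 and 2.27, Adcy2 by 1.01 and 1.62 and Cnr1 by 1.12 and 1.69 in Resilient and Susceptible libraries, each called in both. Cartpt, at -0.18 and -0.32, was called in neither. Vessel and blood genes repeated as well, Rgs5 at -3.51 and -2.70 and Hbb-bs at -4.94 and -4.28. A repeat therefore cannot tell neuron class from vessel content. No repeat rate over all genes called in Control is set beside that of the class genes. Cnga3, Zfp433, Pcdh20 and Fos were among the genes with the other sign in Resilient. By the interaction test, which asks whether the D1 minus D2 difference of a gene differed from that in Control, edgeR called 0 of all genes in Resilient and 0 in Susceptible, with 967 and 1509 at an unadjusted p under 0.05, while limma-voom called 160 and 0.

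**Figure D5:**
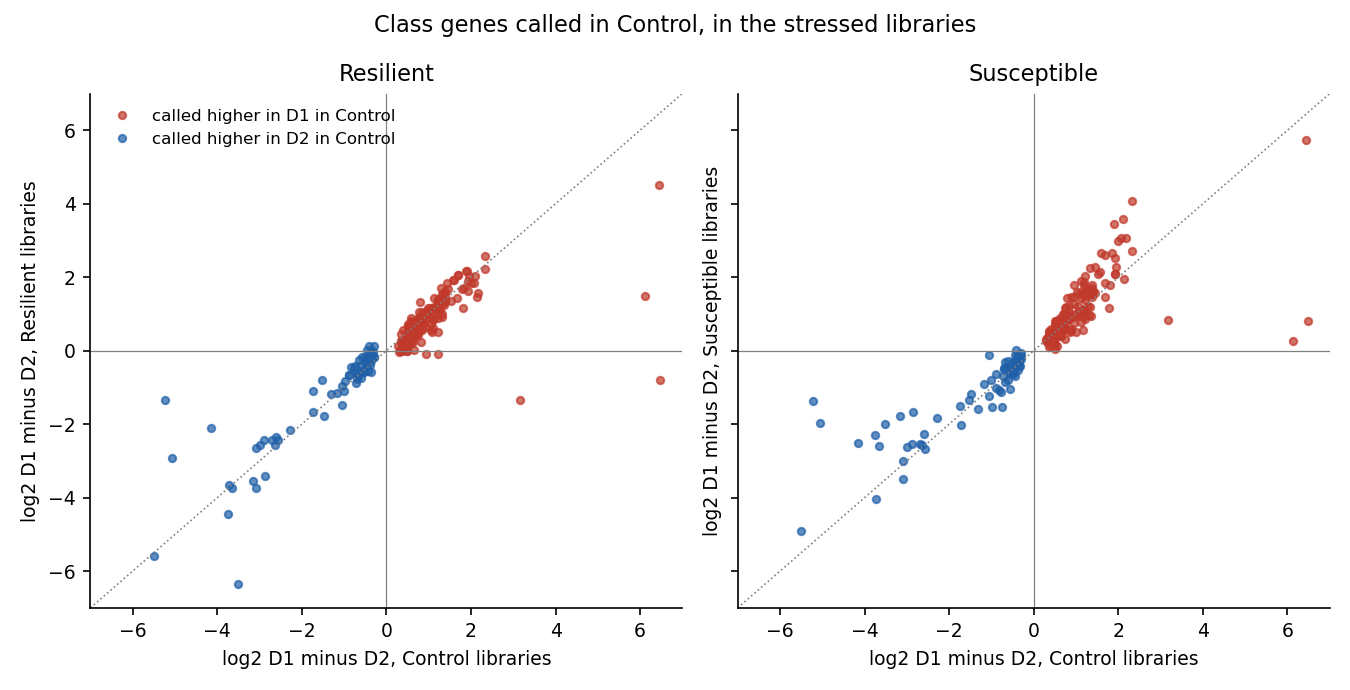
Log2 difference, D1 minus D2, of the 214 class genes called in Control, in Control libraries on the horizontal axis and in Resilient (left) or Susceptible (right) libraries on the vertical axis, red for genes higher in D1 in Control and blue for genes higher in D2. The dotted line marks equal differences, and 202 and 213 of the 214 points keep their sign. The 3 points furthest to the right are Lhx9, Dlx3 and Cnga3, which had 0 counts in every D2 Control library and whose horizontal positions depend on the prior count of the fit.

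The separation from vessels was also attempted in the model. With a vascular index (the mean log2 CPM of endothelial and mural genes) as a covariate, edgeR called 0 genes (3137 at an unadjusted p under 0.05, smallest adjusted p 0.0925), and Drd1 itself turned to -1.25. The index ran from -1.28 to -0.565 in D1 and from 0.854 to 1.43 in D2 libraries, 92.8% of its variance lay between the 6 groups, and standard errors grew 2.36-fold at the median. With an index of interneuron and cortical genes, 82 genes were called, 3 higher in D1 and 79 higher in D2. Vessel content and neuron class cannot be told apart in this design, and the counts above are of genes on no vessel, glia or blood list, not of genes shown to come from spiny neurons.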

How the data were processed

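The deposited table holds raw counts per gene for 30 libraries. HISAT2, HTSeq and GRCm38 (mm10) are named in the submitters' processing notes; neither tool versions nor the use of strand in counting is stated there, and 17 of the 66 named genes that overlap an exon on the opposite strand are uncertain. Summary lines that name no gene held 10.3% to 13.0% of each Control column's total and were left out. Genes passing filterByExpr (minimum count 10, total 15) numbered 19368, and 35967 were set aside. edgeR 4.0.16 (R 4.3.3; TMM, robust quasi-likelihood fit over 6 groups and 30 libraries) gave D1 Control against D2 Control, with Benjamini-Hochberg adjustment over all genes tested; limma 3.58.1 (voom) and DESeq2 1.42.0 were alternatives. Nothing says that libraries came from separate cohorts beyond separate pools, so p-values measure the spread between pools. Marker sums were compared by exact permutation tests. Floors cover counting error only, while the SDs and the standard errors from edgeR include the spread between pools.

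The members and lists were chosen with earlier results of these data known. Genes named are the 6 markers, all identity-list members, up to 3 genes per class and direction (2 for signalling and guidance) and 3 per direction over all genes with the smallest edgeR adjusted p on no vessel, glia or blood list, and the 2 most abundant members of each such list. Gpr52 is not analysed here, and 2 genes that the rule named, with some other members of the lists, are not reported here, although counts and sums over lists include them.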

Additional observations from a re-analysis of the deposited data

Results flagged for a closer look

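A library was taken as far from its group where its gap to the nearest of the other 4 exceeded 0.71 of the group's range (Dixon's 95% value for 5). This held for 27 of the 160 groups of 5 values looked at, the 66 named genes, 13 marker-list sums and the marker index in each class. Chance would give about 1 in 20, here 8.0. The groups come from the same libraries and the list sums include named genes, so they are not independent and the 27 is no test against 8.0. D1 Control replicate 1 was the highest of its group for 10 of them. Vascular and blood values were Vtn (11.2 CPM, next library 3.18 CPM), Rgs5 (13.5 CPM, next library 8.77 CPM), Hbb-bs (8.77 CPM, next library 3.35 CPM) and summed mural markers (90.3 CPM, next library 63.3 CPM). Glial values were Glul (472 CPM, next library 246 CPM), Slc1a2 (553 CPM, next library 364 CPM), summed astrocyte markers (2644 CPM, next library 1491 CPM), summed oligodendrocyte markers (1968 CPM, next library 1249 CPM) and summed microglial markers (221 CPM, next library 128 CPM). The D2 peptide precursor was the remaining one, Penk (1811 CPM, next library 1313 CPM). The same library was the lowest of its group for Isl1 (23.9 CPM, next library 35.6 CPM). D2 Control replicate 5 was the highest of its group for 11 genes, and each of these was called higher in D1. Peptides and factors were Isl1 (20.3 CPM, next library 8.05 CPM), Npy (42.6 CPM, next library 21.5 CPM), Sst (188 CPM, next library 88.4 CPM), Vip (14.7 CPM, next library 5.47 CPM) and Nr4a2 (36.5 CPM, next library 16.7 CPM). Receptors and the remaining genes were Cnr1 (87.8 CPM, next library 50.3 CPM), Htr1a (8.04 CPM, next library 4.63 CPM), Glra2 (26.4 CPM, next library 18.3 CPM), Adcy2 (36.8 CPM, next library 25.5 CPM), Clstn2 (23.8 CPM, next library 15.4 CPM) and Disp2 (135 CPM, next library 99.1 CPM). D2 Control replicate 4 was the highest for Mbp (286 CPM, next library 201 CPM), Cacng4 (257 CPM, next library 188 CPM) and summed oligodendrocyte-precursor markers (593 CPM, next library 482 CPM). D1 Control replicate 2 was the lowest for Tnr (62.7 CPM, next library 77.7 CPM), and D1 Control replicate 3 for Pou3f1 (58.5 CPM, next library 79.2 CPM). Without D1 replicate 1 and D2 replicate 5, 55 of the 58 named genes that were called remained called, 3 were lost and 1 was gained. What sets these libraries apart was not tested.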

How the results depend on the processing

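Counts of calls moved with the estimate of the spread and with covariates; the cause was not tested. With voom and sample quality weights there were 5511 genes (2745 higher in D1 and 2766 in D2), with 39 neuropeptides (30 and 9), 90 receptors (58 and 32), 27 ligand-gated channels (21 and 6), 66 other ion channels (46 and 20), 228 transcription factors (113 and 115), 83 signalling genes (47 and 36) and 111 guidance genes (87 and 24). With only the 10 Control libraries there were 2696 genes (1259 higher in D1 and 1437 in D2), with 26 neuropeptides (20 and 6), 67 receptors (43 and 24), 14 ligand-gated channels (13 and 1), 36 other ion channels (27 and 9), 96 transcription factors (46 and 50), 52 signalling genes (33 and 19) and 76 guidance genes (62 and 14). With D1 Susceptible replicate 1 and D2 Susceptible replicates 1 and 2 left out, chosen after seeing the data, there were 3247 genes (1510 higher in D1 and 1737 in D2), with 27 neuropeptides (22 and 5), 68 receptors (42 and 26), 18 ligand-gated channels (15 and 3), 41 other ion channels (30 and 11), 124 transcription factors (59 and 65), 63 signalling genes (35 and 28) and 84 guidance genes (66 and 18). The DESeq2 Wald test gave 14 ligand-gated channels (2 higher in D2), 19 signalling genes and 10 guidance genes higher in D2. Totals by the DESeq2 size factors and without a filter on low counts stayed within 1.5 times. The vascular index, alone or with a glial index, left 0 genes called in total, in every class and in either direction. With the interneuron and cortical index, added after seeing the data, there were 82 genes (3 higher in D1 and 79 in D2), with 1 neuropeptide (0 and 1), 2 receptors (0 and 2), 0 ligand-gated channels (0 and 0), 0 other ion channels (0 and 0), 2 transcription factors (0 and 2), 0 signalling genes (0 and 0) and 0 guidance genes (0 and 0). Of the variance of the vascular and of the interneuron and cortical index, 92.8% and 89.0% lay between the 6 groups.

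Log2 differences of named genes that turned sign were, with the vascular index, Drd1 -1.25, Pdyn -1.32, Tac1 -1.45, Isl1 -1.0, Ebf1 -1.81, Eya1 -0.36, Sfxn1 -1.45, Slc35d3 -1.11, Asic4 -0.11, Gpr6 0.11, Cbln4 0.40, Grik1 -0.35, Grin3a -0.10, Gnai1 -0.07, Ptprm 0.04, Bsg 0.22, Col6a1 0.80, Ptgds 1.29, Glul 0.35, Slc1a2 1.20 and Mbp 1.20. With the vascular and glial indices they were Drd1 -1.85, Pdyn -2.48, Tac1 -1.85, Isl1 -2.43, Ebf1 -2.52, Sfxn1 -1.80, Slc35d3 -1.69, Gpr6 0.28, Npy -0.81, Sst -0.86, Vip -0.41, Cbln4 0.65, Cnr1 -0.04, Grik1 -0.15, Grin3a -0.85, Kcnc2 -0.78, Gnai1 -0.17, Ptprm 0.06, Bsg 0.35, Col6a1 1.26, Slc1a2 0.52, Mbp 0.24, Maf -0.42 and Clic6 0.23. With the interneuron and cortical index they were Isl1 -0.79, Chrm4 -0.31 and Spock2 -0.14. Col6a1 turned to 0.01 without a filter. Leaving out 1 Control library changed the sign of genes near 0: Col6a1 from -0.10 to 0.10, Eya1 from -0.04 to 0.14, Mbp from -0.36 to 0.02 and Slc1a2 from -0.25 to 0.02. None of these was called.

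Leaving out 1 Control library at a time gave called genes 981 to 1794, higher in D1 441 to 827 and higher in D2 540 to 967; the fewest were without D1 replicate 3 and the most without D1 replicate 1. Class counts that moved by over 1.5 times were guidance genes higher in D2 2 to 8, ion channels higher in D2 4 to 9, ligand-gated channels higher in D2 0 to 1, neuropeptides higher in D2 1 to 3, transcription factors called 34 to 64 and transcription factors higher in D1 16 to 32. Differences of list sums whose call changed were astrocyte -1.04 to -0.81, microglial -0.53 to -0.26, oligodendrocyte -0.44 to -0.17, oligodendrocyte-precursor -0.28 to -0.17 and pan-neuronal 0.22 to 0.30. The microglial and oligodendrocyte sums passed the threshold without D1 replicate 1, and the astrocyte, precursor and pan-neuronal sums missed it in 6, 7 and 7 of 10 cases. The cortical difference, not called in any case, ran from -0.09 to 0.02, above 0 without D2 replicate 4. By the mean log2 CPM of the members, the cortical list was at 0.71 and the microglial at -0.93 (both now past the threshold), and oligodendrocyte-precursor -0.46 and ependymal -0.26 (no longer past it).

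Same-numbered D1 and D2 Control libraries came from different mice and their deviations correlated by -0.066 to 0.034, so the numbers do not pair them. The fit with the replicate number as a block called 1497 genes (640 and 857), 1 named call was lost, and Col6a1, which is not called, turned to 0.01. At this depth a level of 0.0741 CPM or less cannot be told from absence.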
